A study of Mus musculus with 12 samples.

Results

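The genes described here encode the cell-to-cell junctions of heart muscle: 3 gap junction genes (Gja1, Gja5 and Gjc1), 5 desmosome genes (Dsg2, Dsc2, Dsp, Pkp2 and Jup) and 2 adherens junction genes (Cdh2 and Ctnna1). They were chosen by symbol, and all 10 were present among the 14957 genes of the count tables and among the 13910 that passed the filter on low counts, with 28 to 12393 counts in a library. RNA from ventricles of 12 wild-type C57Bl/6J mice was sequenced in bulk, 4 mice in each of 3 groups. Their ages were not given in the sources used here. TAC-BacNav mice had transverse aortic constriction (TAC, a band on the aorta that loads the left ventricle with pressure) and received AAV9-MHCK7-BacNav-mScarlet, a viral vector carrying BacNav, an engineered bacterial sodium channel, and the red fluorescent protein mScarlet. TAC-mScarlet mice had the same surgery and received AAV9-MHCK7-mScarlet, the vector with the fluorescent protein alone. Sham-NT mice were sham-operated and received PBS and no vector, so in each comparison with Sham-NT the constriction and the vector cannot be told apart. MHCK7 is a promoter active in striated muscle, so the vectors were built to act in muscle cells, while the RNA came from all cells of the ventricle.

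Heart muscle cells meet end to end at the intercalated disc, where these 3 kinds of junction lie side by side. Gap junctions are channels of connexins that pass current from cell to cell; desmosomes tie the desmin filaments of neighbouring cells together, and adherens junctions tie their actin filaments together. Inherited defects of desmosome genes cause arrhythmogenic cardiomyopathy, and loss or relocation of Gja1 protein from the disc is a well known feature of failing hearts.

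Total counts ran from 5.36 to 11.5 M per library, and every Sham-NT library was shallower than every TAC-mScarlet library. The standard error of a member's log2 fold change was smallest for Ctnna1 (0.11) and largest for Gja5 (0.265), the member with the fewest counts. All 14 ventricular cardiomyocyte markers were above 0 in every library. Of 7 atrial markers, 5 had a row in the tables and Sln had none. Of 8 epithelial markers, 1 had a row, and Epcam and Krt5 had none. The smallest total of a gene in the tables was 30 counts, so a missing row does not show that a gene had no reads. The summed level of the ventricular cardiomyocyte markers was 83960 to 108300 CPM (counts scaled to library size) in TAC-BacNav, 72450 to 94890 CPM in TAC-mScarlet and 107000 to 113400 CPM in Sham-NT. That of 12 fibroblast markers was 3292 to 4045 CPM in TAC-BacNav, 3660 to 8521 CPM in TAC-mScarlet and 2434 to 3143 CPM in Sham-NT, and that of 12 macrophage markers was 792 to 939 CPM in TAC-BacNav, 815 to 1345 CPM in TAC-mScarlet and 546 to 741 CPM in Sham-NT. In bulk tissue, fewer cells of a type and less RNA per cell cannot be told apart.

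Per kilobase of exon, desmoplakin and alpha-E-catenin had the highest mean levels of the 10 in every group and Gja5 the lowest. Mean levels of Dsp were 94.5 CPM per kilobase in TAC-BacNav, 100.1 in TAC-mScarlet and 94.1 in Sham-NT, and those of Ctnna1 were 69.0 in TAC-BacNav, 64.9 in TAC-mScarlet and 86.5 in Sham-NT. Gja1, Pkp2, Cdh2 and Jup followed in that order in all 3 groups, and the library ranges of Gja1 and Pkp2 overlapped in each. In TAC-BacNav and Sham-NT the next places were held by Dsg2, Dsc2 and Gjc1, with overlapping ranges of Dsg2 and Dsc2. In TAC-mScarlet the order was Gjc1, Dsc2 and Dsg2, at mean levels of 8.21, 7.40 and 6.88 CPM per kilobase, and neighbours overlapped. Dsp and Ctnna1 overlapped in Sham-NT but not in TAC-BacNav or TAC-mScarlet. Ctnna1 and Gja1 overlapped in TAC-mScarlet, where Gja1 was the higher in replicate 1 (64.9 against 63.2 CPM per kilobase) and replicate 3 (70.6 against 61.8).

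Genes were compared between groups with edgeR's quasi-likelihood test on the counts, and a gene was called at a Benjamini-Hochberg adjusted p below 0.05 over all 13910 genes. In TAC-mScarlet against Sham-NT, 2 of the 10 junction genes fell (Dsg2 and Ctnna1) and 0 rose, beside 5.17% of all genes called, 2.52% as lower and 2.65% as higher. In TAC-BacNav against TAC-mScarlet none of the 10 passed the test, beside 0.0% of all genes. In TAC-BacNav against Sham-NT again none passed, beside 0.0144% of all genes. At an unadjusted p below 0.05 there were 4 of the 10 in TAC-mScarlet against Sham-NT (22.2% of all genes), 1 of the 10 in TAC-BacNav against TAC-mScarlet (3.36%) and 2 of the 10 in TAC-BacNav against Sham-NT (11.1%). DESeq2 called 4 of the 10 in TAC-mScarlet against Sham-NT (Gjc1, Dsg2, Dsc2 and Ctnna1), beside 9.86% of all genes. It called 0 of the 10 in TAC-BacNav against TAC-mScarlet (0.0359% of all genes) and 0 in TAC-BacNav against Sham-NT (0.273%). The median log2 fold change of the 10 genes was -0.0073 in TAC-mScarlet against Sham-NT (0.0044 for all genes tested), -0.0571 in TAC-BacNav against TAC-mScarlet (0.0036 for all) and -0.14 in TAC-BacNav against Sham-NT (0.0079 for all). The comparisons share libraries, so their values are not independent of each other.

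**Figure D1:**
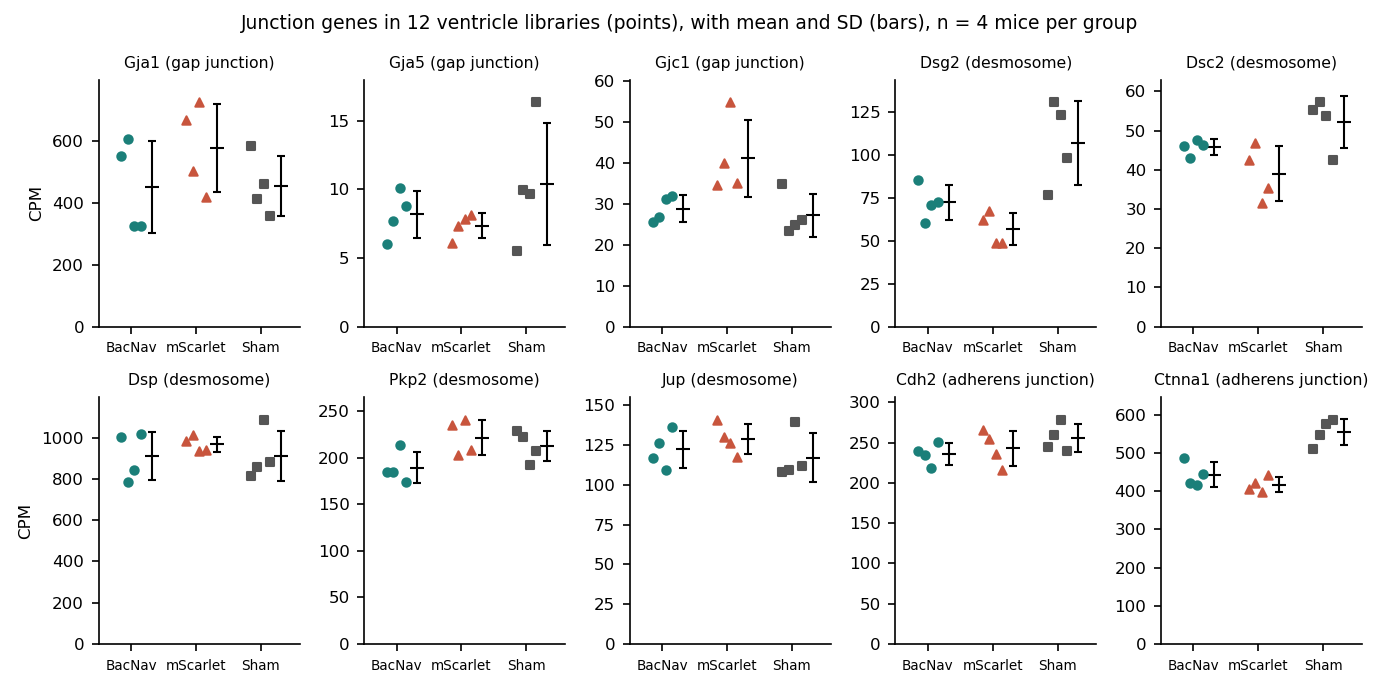
CPM of the 10 junction genes (vertical axes from 0, own scale for each gene) in TAC-BacNav, TAC-mScarlet and Sham-NT ventricles. Points are libraries and bars the mean and SD of 4 mice; all TAC-mScarlet points of Dsg2 and Ctnna1 lie below all Sham-NT points.

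**Figure D2:**
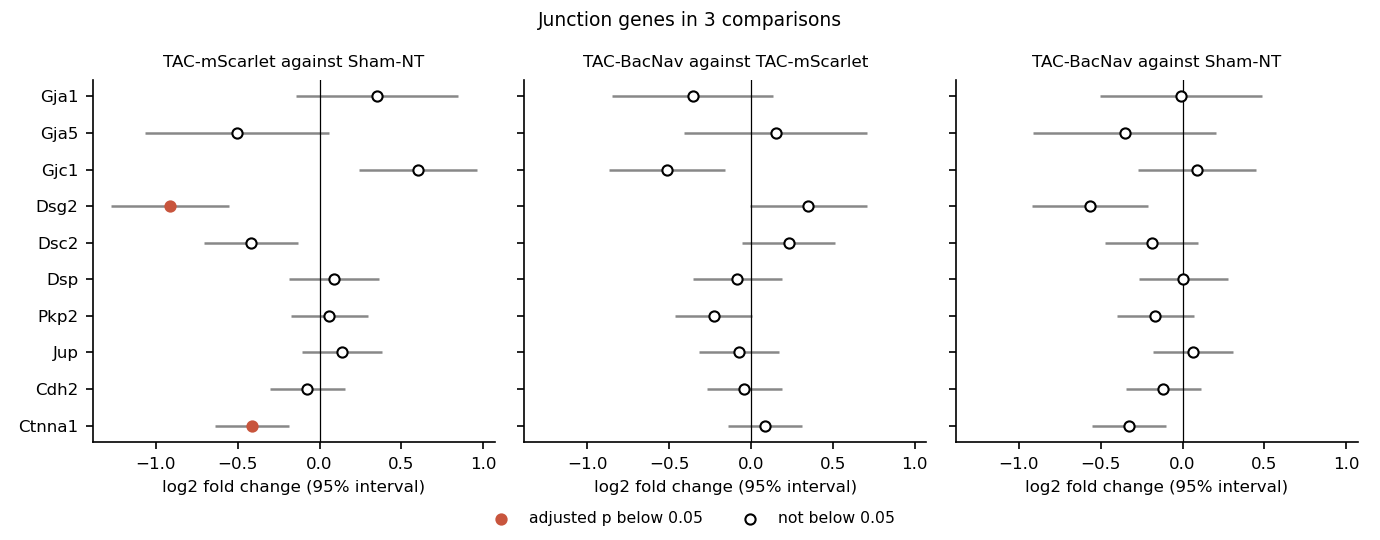
Log2 fold changes (horizontal axis) of the 10 junction genes with 95% intervals, 1 panel per comparison, the group named first over the group named second. Filled points passed an adjusted p of 0.05: Dsg2 at -0.91 and Ctnna1 at -0.41 in TAC-mScarlet against Sham-NT, and none in the other 2 panels.

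Among the gap junction genes, none of the 3 passed the test in any comparison. Gjc1 passed in TAC-mScarlet against Sham-NT under some alternatives, among them edgeR over all 12 libraries with other scalings, but not under most. Gja1 encodes connexin Cx43, the principal connexin of working ventricular muscle. It was measured at 552, 605, 324 and 324 CPM in TAC-BacNav, at 666, 503, 724 and 419 CPM in TAC-mScarlet, and at 583, 414, 460.2 and 357 CPM in Sham-NT. Within TAC-BacNav the libraries fell into a pair at 552 and 605 CPM and a pair at 324 CPM, a wider split than the distance between the group means, and all groups overlapped. Its log2 fold change was 0.35 ± 0.23 (SE) in TAC-mScarlet against Sham-NT (95% interval -0.14 to 0.84; adjusted p = 0.409), -0.36 ± 0.23 in TAC-BacNav against TAC-mScarlet (-0.85 to 0.14) and, in TAC-BacNav against Sham-NT, -0.01 ± 0.23 (-0.50 to 0.49). These intervals leave room for a change of Gja1 by 1.8-fold upward in the first comparison and to 0.554 of the TAC-mScarlet level in the second.

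Gjc1 encodes connexin Cx45, known from conduction tissue and the embryonic heart. It was at 25.5, 26.7, 31.1 and 31.98 CPM in TAC-BacNav, at 34.6, 39.9, 54.7 and 35.1 CPM in TAC-mScarlet, and at 34.9, 23.2, 24.7 and 25.96 CPM in Sham-NT. TAC-mScarlet replicates 2 to 4 were above every Sham-NT library, and replicate 1 was just below the highest of them. The log2 fold change of TAC-mScarlet against Sham-NT was 0.60 ± 0.17, a 1.52-fold difference, which missed the threshold (adjusted p = 0.0514). It was past the threshold with DESeq2 (0.60, adjusted p = 0.0192), library size scaling (0.73, adjusted p = 0.0295), RLE size factors (adjusted p = 0.0498), without TAC-mScarlet replicate 1 (adjusted p = 0.0447) and without Sham-NT replicate 1 (adjusted p = 0.048). Without TAC-mScarlet replicate 3 the log2 fold change was 0.43 (adjusted p = 0.17), and with limma-voom it was 0.60 (adjusted p = 0.06). Gjc1 was called in 2 of 8 fits that left out a library and in 4 of 11 other alternatives. Each TAC-BacNav library was below each TAC-mScarlet library, as held for 0.935% of all genes in that direction. That log2 fold change was -0.51 ± 0.17 (95% interval -0.87 to -0.16), with an unadjusted p of 0.00705 in the model over all genes and an adjusted p of 1.0. TAC-BacNav and Sham-NT overlapped, with a log2 fold change of 0.09 ± 0.17.

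Gja5 encodes connexin Cx40, typical of atrial muscle, the conduction system and arterial endothelium. It was at 6.05, 7.72, 10.1 and 8.80 CPM in TAC-BacNav, at 6.09, 7.36, 7.86 and 8.12 CPM in TAC-mScarlet, and at 5.55, 9.96, 9.71 and 16.3 CPM in Sham-NT, from 28 to 107 counts. Sham-NT held both the lowest and the highest library, and the groups overlapped. The log2 fold change was -0.50 ± 0.265 in TAC-mScarlet against Sham-NT (adjusted p = 0.28), 0.15 ± 0.26 in TAC-BacNav against TAC-mScarlet, and -0.35 ± 0.26 for TAC-BacNav against Sham-NT. Without Sham-NT replicate 4, the highest library, these values against Sham-NT were -0.20 for TAC-mScarlet and -0.0487 for TAC-BacNav. Of 5 atrial markers with a row, none passed in any comparison; their summed level was 110 to 178 CPM in TAC-BacNav, 76.4 to 144 CPM in TAC-mScarlet and 185 to 225 CPM in Sham-NT. Conduction system markers summed to 57.7 to 63.8 CPM in TAC-BacNav, 59.8 to 80.0 CPM in TAC-mScarlet and 57.5 to 80.0 CPM in Sham-NT. Of 14 endothelial markers, 1 rose in TAC-mScarlet against Sham-NT; they summed to 1153 to 1360 CPM in TAC-BacNav, 1173 to 1336 CPM in TAC-mScarlet and 1100 to 1188 CPM in Sham-NT. The part of these cell types in the Gja5 values was not tested. Exons of Gja5 share 165 bases with Gpr89 on the opposite strand, and whether counting used strand was not given in the sources used here.

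Shown here are the 250 bases before the start of Gja1 and of Gja5 (RefSeq, GRCm38.p6). Fos protein, whose RNA is set beside these connexins further on, is a part of the AP-1 transcription factor. A role of Fos or AP-1 in the levels of Gja1 or Gja5 was not tested. The stretches lie on the plus strand at chr10:56377050-56377299 and chr3:97032152-97032401, the Gja5 start lying inside the longer gene of the GENCODE annotation. Capitals mark matches to AP-1 (TGANTCA), a partial cAMP response element (TGACGT) and Sp1 (GGGCGG), searched on both strands.
Gja1: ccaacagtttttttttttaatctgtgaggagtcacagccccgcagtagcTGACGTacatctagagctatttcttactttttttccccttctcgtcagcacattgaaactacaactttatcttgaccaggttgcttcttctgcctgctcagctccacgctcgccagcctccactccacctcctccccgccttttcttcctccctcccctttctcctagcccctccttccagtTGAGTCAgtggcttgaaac
Gja5: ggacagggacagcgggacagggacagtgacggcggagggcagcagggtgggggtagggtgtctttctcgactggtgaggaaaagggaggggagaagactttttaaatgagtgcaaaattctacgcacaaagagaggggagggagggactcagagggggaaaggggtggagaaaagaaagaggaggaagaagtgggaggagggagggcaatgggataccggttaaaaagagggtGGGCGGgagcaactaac
The Gja1 stretch holds TGAGTCA at bases -19 to -13 from the start and TGACGT at -201 to -196, and the Gja5 stretch holds GGGCGG at -17 to -12. Among 32851 such stretches of the RefSeq table, 6.75% hold the AP-1 letters, 6.47% the partial cAMP response element and 32.7% the Sp1 letters. The table matched 4 of the 10 genes, the others being Dsp with 4 Sp1 matches and Jup with 2. A match describes letters in this window and is not a measurement of binding.

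Among the desmosome genes, 1 of 5 passed the test, Dsg2 in TAC-mScarlet against Sham-NT. Dsg2 and Dsc2 encode desmoglein and desmocollin, the desmosomal cadherins that reach across the gap between cells, and in heart muscle Dsg2 is the main desmoglein. Dsg2 was at 85.8, 60.5, 71.1 and 72.7 CPM in TAC-BacNav, at 62.1, 67.6, 48.9 and 49.1 CPM in TAC-mScarlet, and at 76.5, 131, 123 and 98.2 CPM in Sham-NT. The TAC-mScarlet and Sham-NT libraries did not overlap, as held for 6.78% of all genes in that direction, while TAC-BacNav overlapped both. Dsg2 fell to a mean of 56.9 ± 9.45 CPM in TAC-mScarlet, against 107 ± 24.7 CPM in Sham-NT (SD, n = 4 each). The log2 fold change was -0.91 ± 0.17, a level 0.531 of that in Sham-NT (95% interval 0.414 to 0.68; edgeR adjusted p = 0.0174). The call was lost without Sham-NT replicate 2 (log2 fold change -0.81, adjusted p = 0.0681) and without Sham-NT replicate 4 (-0.96, adjusted p = 0.0585), and held in the other 6 fits that each left out a library. In TAC-BacNav the mean was 72.5 ± 10.4 CPM, with all 4 libraries above the TAC-mScarlet mean and all 4 below the Sham-NT mean. The log2 fold change was 0.35 ± 0.17 in TAC-BacNav against TAC-mScarlet (95% interval -0.01 to 0.71; unadjusted p = 0.054 and adjusted p = 1.0 in edgeR) and -0.56 ± 0.17 for TAC-BacNav against Sham-NT (-0.92 to -0.21; unadjusted p = 0.00402 and adjusted p = 0.367). Neither passed the test. Dsg2 shares 330 exon bases with the antisense gene Gm16090, whose reads cannot be told apart from its own without strand.

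Dsc2 was at 46.0, 42.96, 47.6 and 46.4 CPM in TAC-BacNav, at 42.4, 46.9, 31.4 and 35.5 CPM in TAC-mScarlet, and at 55.3, 57.2, 53.7 and 42.6 CPM in Sham-NT. The TAC-BacNav libraries lay within a narrow band, and every pair of groups overlapped. In TAC-mScarlet against Sham-NT its log2 fold change was -0.42 ± 0.14 (95% interval -0.71 to -0.13), with an adjusted p of 0.0817 in edgeR and 0.0428 in DESeq2. With edgeR it also passed under an offset for gene length (-0.45, adjusted p = 0.0499) and without TAC-mScarlet replicate 2 (-0.52, adjusted p = 0.0468). Dsc2 was called in 1 of 8 fits that left out a library and in 3 of 11 other alternatives. The log2 fold change of Dsc2 was 0.23 ± 0.13 in TAC-BacNav against TAC-mScarlet, and -0.19 ± 0.13 for TAC-BacNav against Sham-NT.

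The 3 desmosome genes of the cytoplasmic plaque showed no difference that passed the test. Dsp encodes desmoplakin, which anchors desmin filaments, and Pkp2 and Jup encode plakophilin and plakoglobin, the armadillo-repeat proteins between desmoplakin and the cadherins. Dsp was at 1004, 785, 842 and 1019 CPM in TAC-BacNav, at 983, 1010.3, 933 and 940.4 CPM in TAC-mScarlet, and at 814, 856, 1087 and 880.1 CPM in Sham-NT. The TAC-mScarlet values lay inside the range of Sham-NT, and the log2 fold change was 0.09 ± 0.13 (95% interval -0.18 to 0.36). Pkp2 was at 184, 185, 214 and 174 CPM in TAC-BacNav, at 235, 203, 241 and 209 CPM in TAC-mScarlet, and at 229, 222, 192 and 207 CPM in Sham-NT. All 4 TAC-BacNav libraries of Pkp2 were below the TAC-mScarlet mean, with a log2 fold change of -0.23 ± 0.11 (-0.46 to 0.01; unadjusted p = 0.0565 and adjusted p = 1.0 in edgeR). Pkp2 differed by 0.06 ± 0.11 in TAC-mScarlet against Sham-NT on the log2 scale. Jup was at 117, 126.5, 109.5 and 136 CPM in TAC-BacNav, at 141, 130.2, 126 and 118 CPM in TAC-mScarlet, and at 108, 109, 139.6 and 111.5 CPM in Sham-NT. Sham-NT replicate 3 stood above the other Sham-NT libraries, and the log2 fold change of Jup was 0.14 ± 0.12 in TAC-mScarlet against Sham-NT (-0.11 to 0.38). In the 2 comparisons of TAC-BacNav, Dsp and Jup had log2 fold changes between -0.08 and 0.06. As ratios of TAC-mScarlet over Sham-NT, the 95% intervals ran from 0.88 to 1.28 for Dsp, from 0.886 to 1.23 for Pkp2 and from 0.926 to 1.30 for Jup.

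Because a pair of genes from 1 library shares its depth and scaling, the desmosomal cadherins were also set against Dsp counts, a ratio chosen after the values had been seen and not tested. Per 100 Dsp counts there were 8.54, 7.70, 8.45 and 7.13 Dsg2 counts in TAC-BacNav, 6.32, 6.69, 5.24 and 5.22 in TAC-mScarlet, and 9.41, 15.3, 11.3 and 11.2 in Sham-NT. The groups did not overlap in this ratio, with TAC-BacNav between TAC-mScarlet and Sham-NT, whereas in CPM the TAC-BacNav libraries of Dsg2 overlapped both. The share of all genes that would separate in such a ratio to Dsp was not computed. Per 100 Dsp counts, Dsc2 had 4.58, 5.47, 5.66 and 4.56 counts in TAC-BacNav, 4.31, 4.64, 3.37 and 3.77 in TAC-mScarlet, and 6.80, 6.68, 4.94 and 4.84 in Sham-NT, where TAC-mScarlet lay below Sham-NT and overlapped TAC-BacNav. Per length, the ratio of Dsg2 to Dsc2 was 1.19, 0.898, 0.953 and 0.999 in TAC-BacNav, 0.935, 0.920, 0.992 and 0.882 in TAC-mScarlet, and 0.883, 1.46, 1.46 and 1.47 in Sham-NT. In this ratio TAC-BacNav overlapped TAC-mScarlet, and Sham-NT replicate 1 lay among the TAC libraries.

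**Figure D3:**
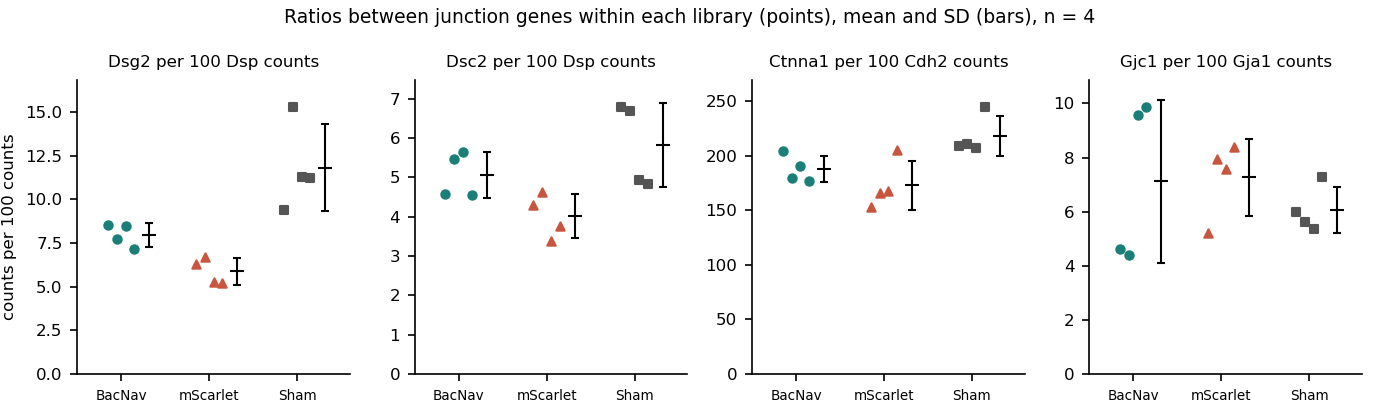
Counts of Dsg2 and Dsc2 per 100 Dsp counts, of Ctnna1 per 100 Cdh2 counts and of Gjc1 per 100 Gja1 counts in each library (points; vertical axes from 0), with the mean and SD of 4 mice (bars). The Dsg2 ratio was 7.13 to 8.54 in TAC-BacNav, 5.22 to 6.69 in TAC-mScarlet and 9.41 to 15.3 in Sham-NT, and the Ctnna1 ratio was highest in Sham-NT. The Dsg2, Dsc2 and Ctnna1 ratios were chosen after the values had been seen and were not tested.

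Of the adherens junction genes, Ctnna1 passed the test in TAC-mScarlet against Sham-NT and Cdh2 in no comparison. Ctnna1 encodes alpha-E-catenin, which links the cadherin and catenin complex to actin. It was at 488, 421, 417 and 445 CPM in TAC-BacNav, at 406, 423, 397 and 443 CPM in TAC-mScarlet, and at 511, 548, 576 and 588 CPM in Sham-NT. All libraries of both TAC groups were below all Sham-NT libraries, and the TAC groups overlapped each other. Ctnna1 fell to 417 ± 20.0 CPM in TAC-mScarlet, against 556 ± 34.2 CPM in Sham-NT (SD, n = 4 each), a log2 fold change of -0.41 ± 0.11 and a level 0.751 of that in Sham-NT (95% interval 0.642 to 0.878; edgeR adjusted p = 0.0373). The log2 fold change stayed between -0.45 and -0.39 when any library was left out, but the adjusted p was then 0.0383 to 0.113, and the call held only without Sham-NT replicate 3; with library size scaling it was -0.29 (adjusted p = 0.103). In TAC-BacNav against Sham-NT the log2 fold change was -0.33 ± 0.11 (-0.55 to -0.10; unadjusted p = 0.0074 and adjusted p = 0.367 in edgeR), and 2.37% of all genes likewise had every TAC-BacNav library below every Sham-NT library. TAC-BacNav and TAC-mScarlet differed by 0.09 ± 0.11 (-0.14 to 0.31).

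Cdh2 encodes N-cadherin, the classical cadherin of heart muscle. It was at 239.8, 234, 218 and 251 CPM in TAC-BacNav, at 265, 254, 236 and 215 CPM in TAC-mScarlet, and at 245, 259, 278 and 239.9 CPM in Sham-NT. The groups overlapped, and the log2 fold changes were -0.07 ± 0.11 in TAC-mScarlet against Sham-NT (95% interval -0.30 to 0.15), -0.04 ± 0.11 in TAC-BacNav against TAC-mScarlet, and -0.12 ± 0.11 for TAC-BacNav against Sham-NT. Within libraries there were 204, 180, 191 and 177 Ctnna1 counts per 100 Cdh2 counts in TAC-BacNav, 153, 166, 168 and 205 in TAC-mScarlet, and 209, 211, 207 and 245 in Sham-NT. This ratio, also chosen after the values had been seen, was higher in every Sham-NT library than in any TAC library, by a small margin for TAC-mScarlet replicate 4 and TAC-BacNav replicate 1.

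Dsg2 and Ctnna1 fell in the comparison in which 3 of 14 ventricular cardiomyocyte markers also fell and 0 rose, with a median log2 fold change of -0.26, and in which 5 of 12 fibroblast and 6 of 12 macrophage markers rose, with medians of 1.21 and 0.52. The summed cardiomyocyte markers of TAC-mScarlet and Sham-NT did not overlap, and their part in the fall of Dsg2 and Ctnna1 was not tested. Dsp, Pkp2, Jup and Cdh2, measured in the same libraries, had log2 fold changes of 0.09, 0.06, 0.14 and -0.07. The loci of Dsg2, Dsc2, Cdh2 and Ctnna1 lie on chromosome 18 (GRCm38, GENCODE vM21), Dsg2 at 20558074 to 20604521 on the plus strand, Dsc2 at 20030633 to 20059554 and Cdh2 at 16588877 to 16809246 on the minus strand, and Ctnna1 at 35118859 to 35254779 on the plus strand. Gja1 lies on chromosome 10 (56377330 to 56402513), Gja5 on 3 (96904693 to 97077416), Dsp on 13 (38151294 to 38198577) and Pkp2 on 16 (16213318 to 16272712), all on the plus strand. Jup (100368958 to 100397763) and Gjc1 (102799579 to 102819700) lie on the minus strand of chromosome 11. Dsp shares 499 exon bases with Gm10129 and Ctnna1 95 with Lrrtm2, each on the opposite strand.

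The libraries of every group split by Fos, an immediate early gene, at 20 CPM: TAC-BacNav replicates 1 and 2, TAC-mScarlet replicates 1 to 3 and Sham-NT replicates 1 and 2 were above it, at 54.9 to 301 CPM, and the others at 1.60 to 7.89 CPM. The split comes from an earlier account of these data and is not a label of the study. Gja1 was higher on the high side in TAC-BacNav, at 552 and 605 CPM against 324 and 324 CPM, and in TAC-mScarlet, at 503 to 724 CPM against 419 CPM, while in Sham-NT the sides overlapped. Gja5 was lower on the high side in both TAC groups and overlapped in Sham-NT. Ctnna1 was lower on the high side in TAC-mScarlet and Sham-NT and overlapped in TAC-BacNav. Dsg2 overlapped between the sides in all 3 groups, and each of the other members was separated in 1 group or more. With so few libraries a side such separation was common: the sides did not overlap for 4 of the 10 junction genes in TAC-BacNav, 5 in TAC-mScarlet and 5 in Sham-NT, beside 44.9%, 49.8% and 44.1% of all genes. These shares are near the background, and no result about the junction genes is read from them. Msln, a marker of mesothelium, and Myl7, an atrial marker, were above on the high side in all 3 groups, Msln at 11.9 to 28.4 against 0.464 to 4.79 CPM and Myl7 at 1.59 to 5.35 against 0.116 to 0.961 CPM; their part in the Gja1 and Gja5 values was not tested. With the side as a term in the model, 4 of the 10 junction genes passed in TAC-mScarlet against Sham-NT, beside 10.5% of all genes: Gjc1 rose, at a log2 fold change of 0.59 (adjusted p = 0.0404) and Dsg2, Dsc2 and Ctnna1 had log2 fold changes of -0.93, -0.44 and -0.40 (adjusted p = 0.00571, 0.0482 and 0.0258). Within the high side alone the log2 fold change was -0.80 for Dsg2 and -0.37 for Ctnna1, and within the low side alone, with 1 TAC-mScarlet library assumed to vary like the others, -1.19 and -0.41. None of the 10 passed in these smaller sets, beside 4.87% of all genes within the high side and 0.672% within the low side.

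**Figure D4:**
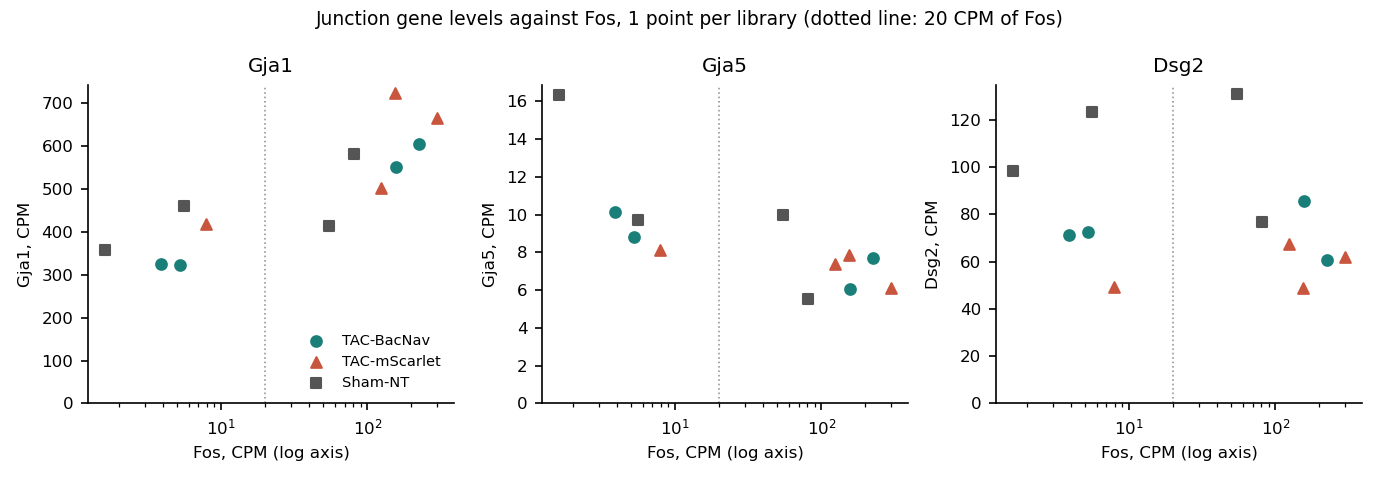
CPM of Gja1, Gja5 and Dsg2 (vertical axes, from 0) against CPM of Fos (horizontal log axis), 1 point per library, with symbols for the 3 groups and a dotted line at 20 CPM of Fos. The TAC-BacNav libraries of Gja1 stand at 552 and 605 CPM right of the line and at 324 CPM left of it, while Dsg2 shows the TAC-mScarlet libraries below the Sham-NT libraries on both sides.

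Other genes of the junctions were taken from 4 lists, and all changes that passed edgeR's test over all libraries were in TAC-mScarlet against Sham-NT. In that comparison 5.17% of all genes were called, 2.65% as higher and 2.52% as lower. Of 4 other connexin and pannexin genes tested, 1 rose and 0 fell (median log2 fold change 0.21). Panx1, a membrane channel protein related to connexins in topology, was at 5.73, 5.66, 19.8 and 14.5 CPM in TAC-mScarlet and at 3.37, 2.15, 2.46 and 2.40 CPM in Sham-NT. The groups did not overlap, and the log2 fold change was 2.15 ± 0.46 (adjusted p = 0.0245). Of 5 other desmosomal genes, 1 fell (median -0.13): Ppl, the plakin family member periplakin, was at 9.30 ± 5.15 CPM in TAC-mScarlet and 21.2 ± 5.02 CPM in Sham-NT (log2 fold change -1.19 ± 0.32, adjusted p = 0.0442), with overlapping libraries. Of 12 other cadherins, catenins and nectins, 2 fell and 0 rose (median 0.13). These were Nectin2, an immunoglobulin-type adhesion protein, at -0.81 ± 0.17 (adjusted p = 0.023), and Ctnnal1, a relative of the alpha-catenins, at -0.85 ± 0.19 (adjusted p = 0.0245).

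The longest of the 4 lists, of scaffolds and linkers of the disc, had 5 higher and 1 lower of 23 tested, with a median of 0.04. Xirp2 and Xirp1, actin-binding Xin proteins of the disc, rose by 1.99 ± 0.36 (adjusted p = 0.0204) and 1.15 ± 0.24 (adjusted p = 0.0229) on the log2 scale. Xirp2 was at 557, 932, 1570 and 1690 CPM in TAC-BacNav, at 1690, 1390, 3380 and 2750 CPM in TAC-mScarlet, and at 469, 517, 742 and 589 CPM in Sham-NT. Its log2 fold change in TAC-BacNav against TAC-mScarlet was -0.96 ± 0.35 (unadjusted p = 0.0165 and adjusted p = 1.0 in edgeR), which did not pass. In TAC-BacNav against Sham-NT that of Xirp2 was 1.04 ± 0.35 (adjusted p = 0.367 in edgeR). Flnc, the muscle filamin, rose by 0.83 ± 0.18 (adjusted p = 0.0245), and Des, the desmin of the filaments that desmosomes anchor, by 0.55 ± 0.13 (adjusted p = 0.0297). Lmo7, an adherens junction linker protein, had a log2 fold change of -0.56 ± 0.12 (adjusted p = 0.0229) and fell to 310.5 ± 28.5 CPM in TAC-mScarlet, against 459 ± 16.1 CPM in Sham-NT, without overlap. Each of the genes named in these lists lost its call in at least 3 of the 8 such fits. In neither comparison of TAC-BacNav did a gene of the 4 lists pass edgeR's test over all libraries. Against TAC-mScarlet, the TAC-BacNav log2 fold changes were -0.09 ± 0.23 for Xirp1, -0.28 ± 0.18 for Flnc, -0.34 ± 0.13 for Des and 0.11 ± 0.12 for Lmo7. DESeq2 called Lmo7 (log2 fold change -0.46, adjusted p = 0.0145) and Xirp1 (1.05, adjusted p = 0.0145) in TAC-BacNav against Sham-NT, and Xirp1 also passed there within the high side of Fos (1.41, adjusted p = 0.0277).

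**Figure D5:**
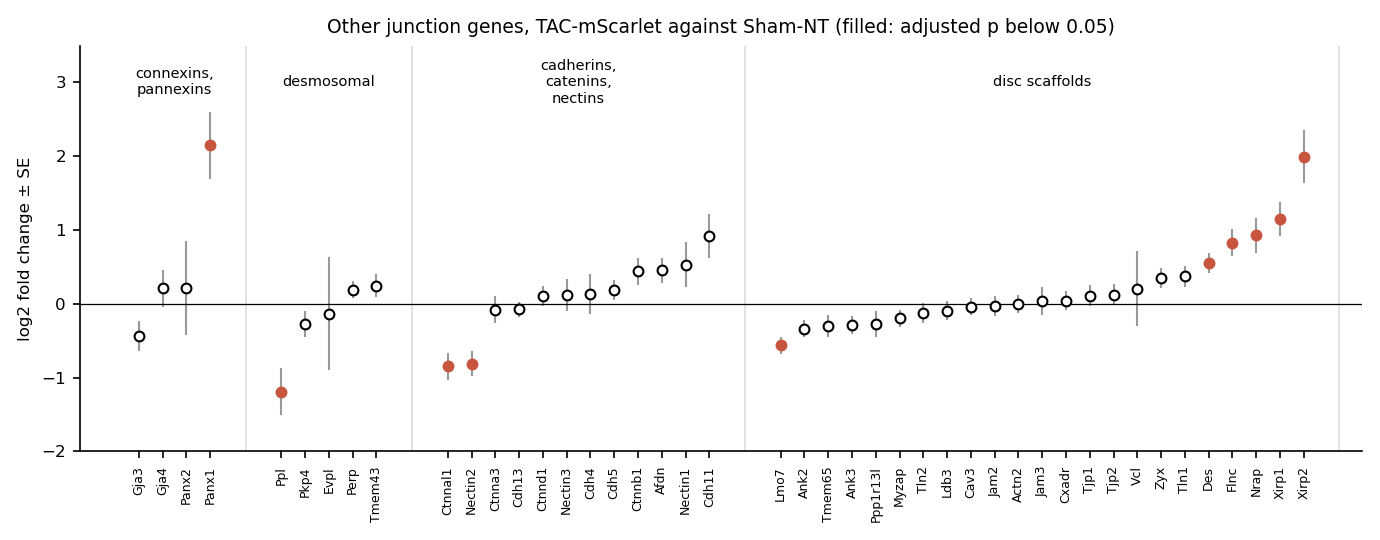
Log2 fold changes (vertical axis, ± SE) of the tested genes of 4 lists of other junction genes in TAC-mScarlet against Sham-NT, sorted within each list. Filled points passed an adjusted p of 0.05, among them Panx1 at 2.15, Xirp2 at 1.99, Ppl at -1.19 and Lmo7 at -0.56.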

How the data were processed

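Bulk RNA-seq of mouse ventricles was analysed from gene counts, 1 deposited table per mouse. Per the submitters' processing notes, the authors aligned reads with HISAT2 and made the counts with featureCounts; versions, strand setting and multi-mapping rule were not given in the sources used here. These notes name the human build GRCh38, but the deposited identifiers are mouse Ensembl ones, of which 14946 of 14957 matched GENCODE vM21 (GRCm38), used here for positions and exon lengths. Every library was a separate mouse, and p-values measure the spread between mice; libraries of a group differed by more than counting noise in every pair (chi-square at least 5.35 per degree of freedom).

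Counts were tested two-sided with edgeR 4.0.16 (R 4.3.3): filterByExpr by group (1047 genes removed, 13910 tested), TMM scaling, 1 robust quasi-likelihood model over all 12 libraries, Benjamini-Hochberg adjustment over all genes tested, called below 0.05. The common biological coefficient of variation was 0.203. CPM use TMM scaling. The SE was taken as |log2 fold change| over the root of F, and intervals are 95%. The test was checked on simulated data. Over the comparisons it recovered 16 to 22.7% of genes changed by 1.5-fold and 60.7 to 68% of those changed by 2-fold, so smaller changes were often missed. Alternatives were DESeq2 1.42.0, limma 3.58.1 (voom), other scalings and filters, a replicate block, an offset for gene length, the Fos sides, and leaving out each library. All 10 members are named, with up to 4 called genes per list and direction, smallest p first. A further list is not reported here. The members and lists were chosen with earlier results of these data known.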

Additional observations from a re-analysis of the deposited data

Results flagged for a closer look

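In 60 groups of 4 libraries examined (the 10 junction genes and the other named junction genes in 3 groups), 4 held a library far from the other 3, where chance gives about 1 in 20. Jup had 140.0 CPM in Sham-NT replicate 3, against 112, 109 and 108 CPM in the other Sham-NT libraries. In the same library Xirp1 had 199 CPM, against 134, 132 and 129 CPM, and Flnc had 297 CPM, against 217, 214 and 210.0 CPM. Nectin2 had 24.5 CPM in TAC-mScarlet replicate 2, against 20.2, 19.7 and 19.6 CPM in the other TAC-mScarlet libraries.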

How the results depend on the processing

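Of 719 genes called in TAC-mScarlet against Sham-NT, the count became 1371 with DESeq2, 467 with limma-voom, 1459 with the Fos side as a term and 96 within the low side of Fos; leaving out 1 library gave 14 to 1055, with 14, 20 and 256 without Sham-NT replicate 2, 4 or 1 and 97 and 228 without TAC-mScarlet replicate 3 or 4. The count of junction genes called, 2, became 4 with DESeq2 or the Fos side as a term, and 0 within the high side of Fos. It was 1 with only the 2 groups fitted or with the replicate block. RLE size factors added Gjc1 to Dsg2 and Ctnna1, and the length offset added Dsc2 to them. Library size scaling called Gjc1 and Dsg2. Leaving out 1 library gave 0 to 2, with 0 without Sham-NT replicate 2 or 4 and 1 without TAC-mScarlet replicate 3 or 4. Without TAC-mScarlet replicate 1 or Sham-NT replicate 1 the genes called were Gjc1 and Dsg2. They were Dsg2 and Dsc2 without TAC-mScarlet replicate 2, and Dsg2 and Ctnna1 without Sham-NT replicate 3. In TAC-BacNav against TAC-mScarlet, 0 genes became 5 with DESeq2, 1 with only the 2 groups fitted, 6 with the replicate block and 2 within the high side, and leaving out a library gave 0.0 to 0.0. In TAC-BacNav against Sham-NT, 2 genes became 38, 1, 12, 8, 4, 34 and 0 with DESeq2, the 2 groups alone, the replicate block, the Fos side as a term, the high side, the low side and the length offset, and 0.0 to 15 without 1 library (15 without TAC-BacNav replicate 1). None of the 10 junction genes was called in either comparison of TAC-BacNav under any alternative run. Over all genes, deviations of same-numbered libraries from their group means had correlations of -0.292 to 0.379, with 3 of 12 best with their own number. The replicate numbers were therefore not taken as pairs. The Fos sides did follow the numbers in part, with replicates 1 and 2 on the high side and replicate 4 on the low side in every group. Whether the numbers stand for a shared step of the work was not tested. Under the replicate block the edgeR adjusted p of Ctnna1 was 0.0588 in TAC-mScarlet against Sham-NT. Signs that turned were all of members that did not pass the test. In TAC-mScarlet against Sham-NT, Cdh2 was 0.0516 with library size scaling and 0.0029 within the high side, and Dsp and Jup were -0.0816 and -0.11 within the low side. In TAC-BacNav against TAC-mScarlet, Gja5 was -0.0525 within the high side and Jup, Cdh2 and Ctnna1 were 0.0588, 0.12 and -0.0413 within the low side; Cdh2 ran from -0.0913 to 0.0039 without 1 library. In TAC-BacNav against Sham-NT, Gja1 was 0.0823 with library size scaling and 0.22 within the high side, and ran from -0.18 to 0.14 without 1 library. There Dsp was -0.0008 with RLE size factors, -0.0009 with DESeq2, -0.10 within the low side and -0.0308 with the length offset, and ran from -0.0533 to 0.10 without 1 library; Gjc1 was -0.15 within the high side and Jup -0.0521 within the low side. The causes were not tested. Library size scaling moved the median log2 fold change of all genes to 0.13 in TAC-mScarlet against Sham-NT and to 0.11 in TAC-BacNav against Sham-NT. Depth limits Gja5 most, at 28 to 107 counts.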
